A study of Capra hircus with 10 samples.

Results

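The comparison described here set mammary gland cells that carried a virus with lncRNA55666 (the group OV55666) against cells that carried the virus Lv5NC. It holds 4 of the 10 libraries of the series, 2 in each group, and was made across the 11340 of 17197 genes that reached 1 FPKM in at least 2 of the 10 libraries. FPKM is the number of sequenced fragments of a gene scaled by its length and by the library. All cells came from the mammary gland of Lanshan dairy goats and were grown in 3D culture, and total RNA was sequenced. The other 6 libraries belong to the groups Blank (genotype control, no virus named), Lv3NC (genotype 3NC, taken as another control virus) and KD553 (knockdown of the same RNA), with 2 libraries each, and serve here as a frame for single genes. The question was what raising lncRNA55666 does to these cells. Lv5NC was taken as the control because the series text names 5NC directly before the overexpression group, and no other wording ties them. The sources used here do not name the promoter of the virus or the number of animals and cultures. As the labels leave it unsaid whether both libraries of a group are separate cultures, the p-values rest on a spread between libraries that may be technical.

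Long noncoding RNAs are transcripts that are not translated into protein. Some act in the nucleus on nearby or distant genes, and others act in the cytoplasm by binding microRNAs or proteins, so raising one can move a few genes, a pathway or nothing that is measured. The mammary gland holds milk-secreting luminal cells, contractile myoepithelial cells and a stroma of fibroblasts, fat cells and vessels. No row of the table is named for lncRNA55666. Its level is not analysed here, and the overexpression was not checked against the labels.

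The 4 libraries had FPKM sums between 454133 and 455841, and between 10934 and 11033 genes reached 1 FPKM in each. The depth in reads is unknown. Fibroblast markers were high in both groups: all 12 were tested, and their summed level was 20445 and 22489 FPKM in Lv5NC and 21142 and 23043 in OV55666. Luminal epithelial markers had 16 rows, of which 13 stayed under 1 FPKM in all 4 libraries. The sum of the 3 that were tested was 14.1 and 15.3 FPKM in Lv5NC against 14.6 and 16.0 in OV55666. Most of it was ESR1, the oestrogen receptor, at 9.08 and 9.56 FPKM in Lv5NC and 8.77 and 9.25 in OV55666. Of the marker rows of other cell types, 8 of 10 for endothelium, 10 of 13 for leukocytes and 6 of 7 for adipocytes were below 1 FPKM in all 4 libraries. Markers of contractile cells were present in part: 5 of 8 rows for basal or myoepithelial cells and 4 of 7 for pericytes were tested. In each of these lists 3 rows were below 1 FPKM in all 4 libraries. The tested basal or myoepithelial rows summed to 1713 and 1855 FPKM in Lv5NC and to 1523 and 1988 in OV55666. Those of pericytes summed to 41.6 and 37.8 against 38.8 and 34.8. In bulk RNA, fewer cells of a type and less RNA per cell cannot be told apart.

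No gene changed past the test in OV55666. In limma's test 0 of 11340 genes (0.0%) were called at an adjusted p of 0.05, the smallest adjusted p was 1, and 166 genes (1.46%) had an unadjusted p under 0.05. Of these, 116 (1.02%) were higher and 50 (0.441%) lower in OV55666. The share of 1.46% is below what a threshold of 0.05 lets through where nothing differs. The median gene differed by 0.06 in size on the log2(FPKM + 1) scale, and the central 95% of genes lay between −0.20 and 0.22. This scale adds 1 to each value and understates the change of low genes. For a typical gene the 95% interval of the change was the estimate ± 0.245 (the median half-width). A difference of more than 0.5 was present in 37 genes, 20 higher and 17 lower, and in 21 of them the groups did not overlap. All members and genes below are therefore described by their values, and none of them passed the test (limma, adjusted p = 1 for each gene named).

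Libraries of the same number were closer to each other across the groups than the libraries within a group. The crossed pairs were about as far apart as the pairs within a group. The median absolute difference of a gene was 0.101 between the OV55666 libraries and 0.114 between the Lv5NC libraries. Across groups it was 0.0862 between the first libraries, 0.0750 between the second ones, and 0.105 and 0.120 in the crossed pairs. Genes that differed by more than 0.5 numbered 270 within OV55666 and 382 within Lv5NC. Across groups there were 138 between the first libraries, 95 between the second ones, and 317 and 373 in the crossed pairs.

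Small differences leaned upward. Of all tested genes 58.7% were higher in OV55666, with a median log2 change of 0.02. After quantile normalization the share was 51.1%, with a median of 0.002. Both OV55666 libraries lay above both Lv5NC libraries in 2012 genes (17.7%) and below them in 1028 (9.07%), together 26.8% of genes. With so few libraries a group, many genes have no overlap even where nothing differs, so a lack of overlap is no sign of a change. Of the 2012 genes, the Lv5NC libraries were the lowest of all 10 in 295 (14.7%) and the OV55666 libraries the highest in 145 (7.21%). Of the 1028 genes, the OV55666 libraries were the lowest of all 10 in 96 (9.34%) and the Lv5NC libraries the highest in 70 (6.81%).

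**Figure D1:**
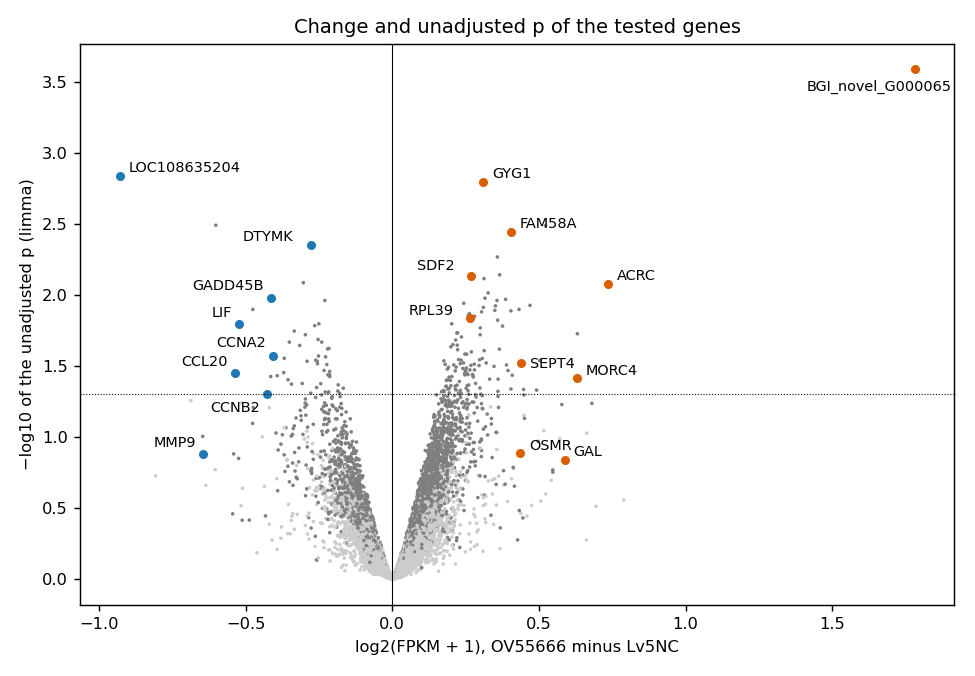
Each point is 1 of the 11340 tested genes, with its log2(FPKM + 1) change, OV55666 minus Lv5NC, on the x axis and the −log10 of limma's unadjusted p on the y axis. Dark grey marks genes whose groups do not overlap and the dotted line an unadjusted p of 0.05. Most genes lie within 0.2 of 0, and the labelled genes are among those described in the text.

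Among the genes lower in OV55666 without overlap, those with the largest changes included genes of secreted proteins, of cell division and of metabolism. LIF, a cytokine of the interleukin-6 family, was at 1.94 and 2.44 FPKM in OV55666 and at 3.97 and 3.19 in Lv5NC. The groups did not overlap, and the log2 change was −0.52 ± 0.18 (SE, n = 2 a group, limma unadjusted p = 0.016). Each SE given here comes from the limma fit and pools the spread within all 5 groups, not within these 2 alone. CCL20, a chemokine that attracts lymphocytes and dendritic cells, was at 1.57 and 1.50 FPKM against 2.47 and 2.89 (log2 −0.54 ± 0.22). In the other 6 libraries CCL20 ranged from 0.10 to 3.27 FPKM, so both groups lay inside the spread of the series. MMP9, a protease that cleaves basement membrane collagen, was at 1.28 and 1.81 FPKM against 2.96 and 2.95 (log2 −0.64 ± 0.38). The Lv5NC libraries had the highest MMP9 of the 10, and a Blank library had the lowest, 0.30.

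GADD45B, a stress-induced growth arrest gene, was at 6.73 and 5.57 FPKM in OV55666 and at 9.18 and 7.84 in Lv5NC (log2 −0.41 ± 0.13, unadjusted p = 0.0104). All 6 libraries of the other groups were lower still, between 3.71 and 5.30 FPKM. FST, the secreted inhibitor of activins, was at 1.31 and 1.66 FPKM in OV55666, below all 8 other libraries. Those ran from 1.93 to 13.03 FPKM, with Lv5NC at 2.30 and 2.39, and the log2 change against Lv5NC was −0.43 ± 0.44. That SE takes in the spread of the other groups, among them Blank at 3.91 and 13.03 FPKM. TGFB1, the ligand TGF-beta 1, was at 44.1 and 36.7 FPKM against 54.2 and 44.2. LOC102181552, which the authors' annotation calls plasminogen activator inhibitor 2, was at 3.83 and 3.81 FPKM against 5.49 and 6.40. LOC102184252, annotated as cytochrome P450 1B1, was at 5.14 and 5.31 against 7.99 and 7.47. Among abundant genes the lowest change was that of CCDC80, a secreted matrix protein, with 109.9 and 134 FPKM against 171 and 140.03 (log2 −0.35 ± 0.13). Only the first Lv5NC library stood apart, as the other 9 ran from 102.6 to 141.9 FPKM.

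The lowest unadjusted p among genes lower in OV55666 with an entry in the reference table was that of LOC108635204, a gene annotated as similar to the centrosomal protein Cep89. It was at 0.41 and 0.04 FPKM in OV55666 and at 1.37 and 1.24 in Lv5NC (log2 −0.93 ± 0.21, limma unadjusted p = 0.00145). In the remaining 6 libraries it ran from 0.00 to 0.88 FPKM, so the Lv5NC libraries were the highest of the 10. DTYMK, the kinase that makes thymidine diphosphate for DNA synthesis, was at 5.79 and 5.65 FPKM against 7.22 and 7.06 (log2 −0.28 ± 0.07, unadjusted p = 0.00443).

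On the higher side the changes were spread over genes of unlike function. GYG1, the protein that primes glycogen synthesis, was at 14.4 and 14.2 FPKM in OV55666 and at 11.2 and 11.5 in Lv5NC (log2 0.31 ± 0.07, unadjusted p = 0.0016). The Lv5NC libraries were the lowest of the 10, and the other 6 ran from 11.7 to 15.1 FPKM. FAM58A, a cyclin that activates the kinase CDK10, was at 7.36 and 7.04 FPKM against 5.62 and 4.79 (log2 0.41 ± 0.10, unadjusted p = 0.00359). In the other 6 libraries FAM58A ran from 4.87 to 7.17 FPKM, which overlaps both groups. SDF2, an endoplasmic reticulum protein, had a different pattern. Its OV55666 libraries, at 14.6 and 15.5 FPKM, were above all 8 others, which ran from 11.5 to 13.1 (log2 0.27 ± 0.08 against Lv5NC). RSPO1, a secreted enhancer of Wnt signalling, was likewise highest in OV55666, at 2.05 and 1.65 FPKM, with Lv5NC at 1.39 and 1.09 and the other 6 libraries between 0.67 and 1.25.

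RPL39, a ribosomal protein, had the largest change among genes with a mean of at least 100 FPKM that were higher. Its values were 240.4 and 251 FPKM in OV55666 and 206 and 203 in Lv5NC (log2 0.27 ± 0.09), and the highest of the other 6 libraries was just below the lower OV55666 library, at 239.5. GNG11, a G protein gamma subunit, was at 182 and 178 FPKM against 156 and 159, again above all 8 other libraries. OSMR, the receptor of oncostatin M, was at 4.01 and 3.00 FPKM against 2.12 and 2.51. The Lv5NC libraries were the lowest of the 10 for OSMR, and Blank reached 8.90. GAL, a neuropeptide, was at 3.35 and 2.21 FPKM against 2.06 and 1.02, and APLN, the peptide ligand apelin, at 1.88 and 1.67 against 0.99 and 1.12. APLN varied far more elsewhere in the series than between these groups and reached 13.8 FPKM in a Blank library. GPX3, a secreted glutathione peroxidase, was at 7.59 and 7.46 FPKM against 4.09 and 6.70 (log2 0.45 ± 0.47). In the other 6 libraries GPX3 ran from 3.43 to 17.13 FPKM and GAL from 0.98 to 3.29.

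**Figure D2:**
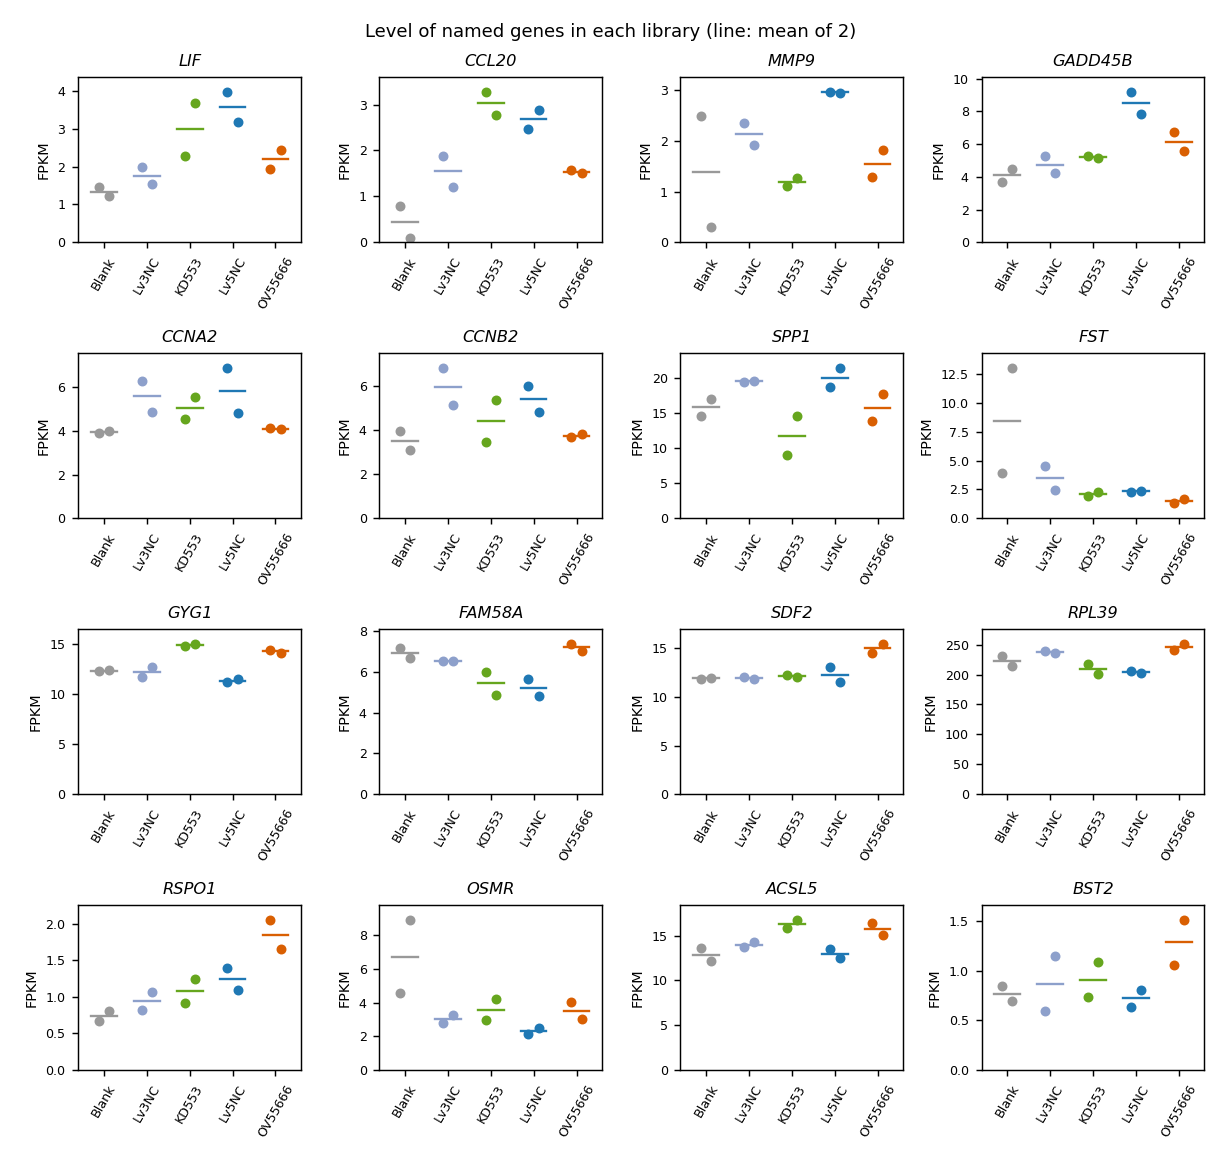
FPKM (y axis, linear from 0) of 16 genes in each of the 10 libraries, by group, with 1 point a library and a line at the mean of 2. LIF, CCL20, MMP9 and GADD45B are highest or near highest in Lv5NC, whereas SDF2, RSPO1 and RPL39 are highest and FST lowest in OV55666.

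Genes with both OV55666 libraries outside the range of all 8 others numbered 145 above (1.28%) and 96 below (0.847%). For Lv5NC the same count was 70 above (0.617%) and 295 below (2.6%), and in either direction it was 434 for Lv3NC (3.83%), 1104 for KD553 (9.74%) and 1690 for Blank (14.9%). The OV55666 libraries thus had the fewest such genes of the 5 groups, 241 (2.13%). By the gap to the other 8, those above included ACRC, a germ cell nuclear protein, SEPT4, a septin, and RTTN, which is needed for centriole assembly. SEPT4 was at 1.49 and 1.39 FPKM, with Lv5NC at 0.73 and 0.87, and RTTN at 2.53 and 2.46, with Lv5NC at 1.53 and 2.02. Those below included PLK4, the kinase that starts centriole duplication, at 2.42 and 2.48 FPKM against 3.27 and 2.84 in Lv5NC. NUP88, a nuclear pore protein, was at 12.1 and 12.7 FPKM against 13.7 and 13.5.

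Gene groups were then described from 36 lists of pathways and markers and 50 families drawn by symbol, of which 75 had at least 5 tested members. Their median log2 changes lay between −0.19 and 0.11. For 71 of the 75 the median was within 0.1 of 0, and for 46 it was above 0, beside a median of 0.02 and 58.7% higher among all genes. In 25 of the 75 the median kept 1 sign with each of the 4 libraries left out, after quantile normalization and with a pseudocount of 0.1. No list had a called member.

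**Figure D3:**
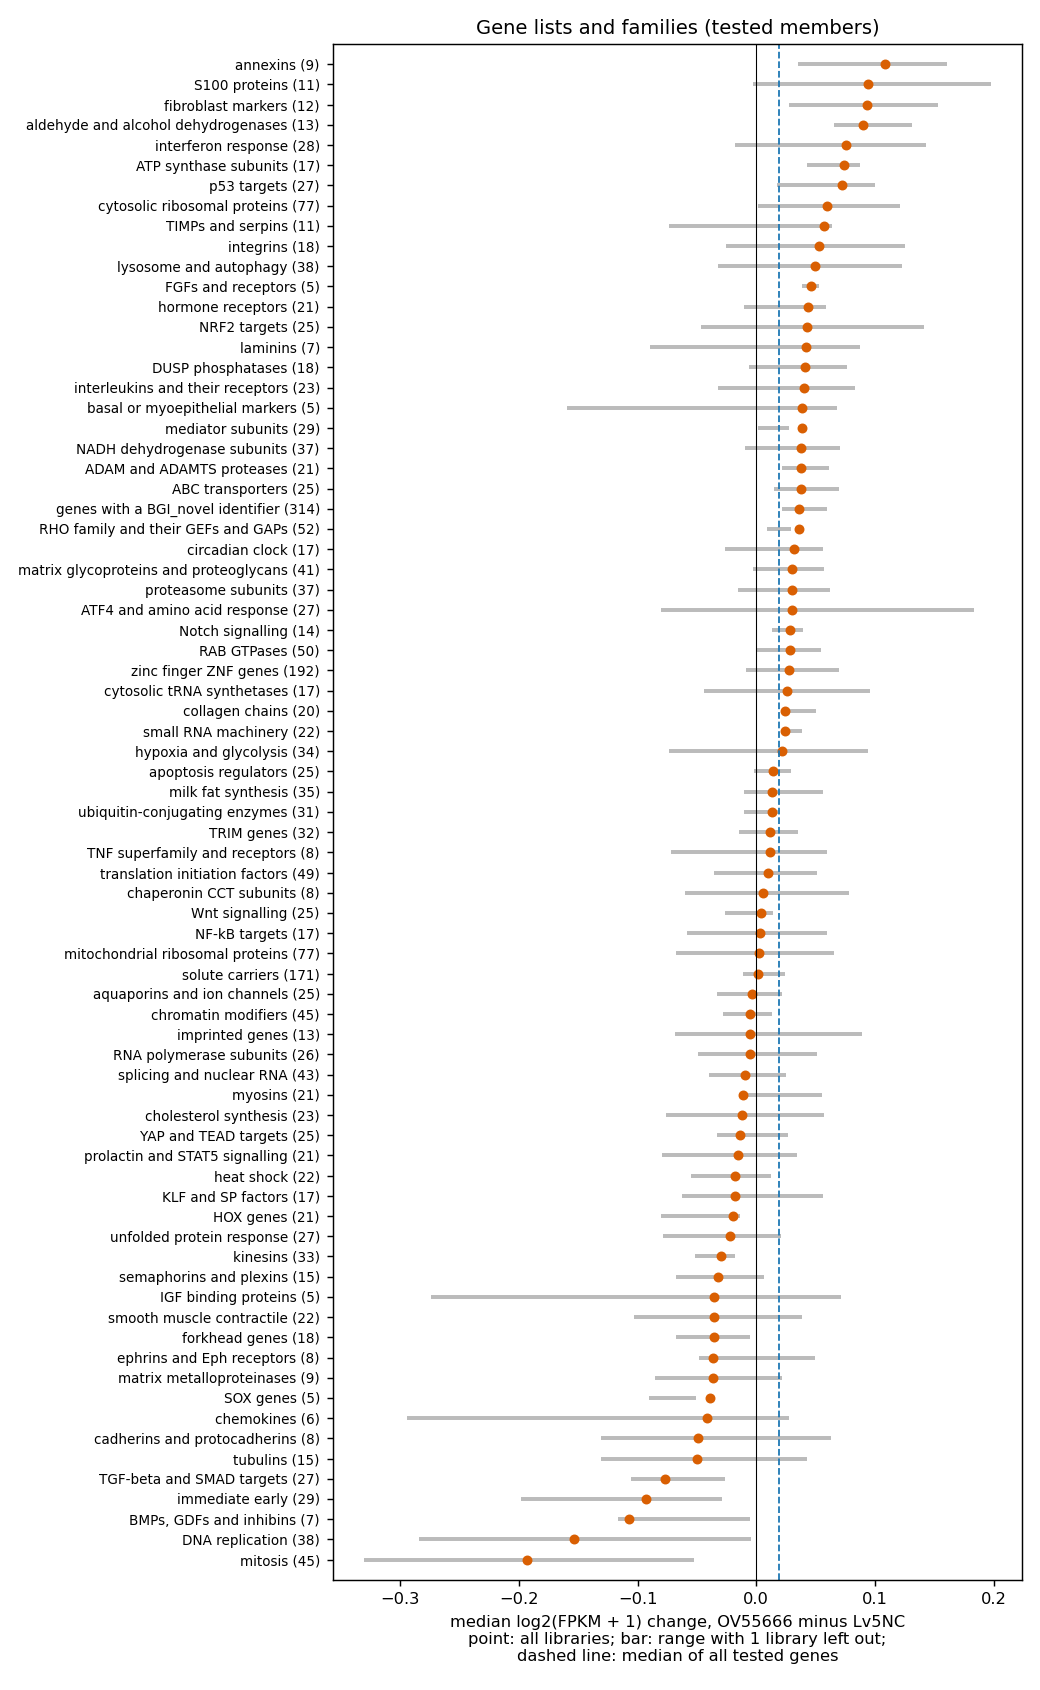
The x axis gives the median log2(FPKM + 1) change of the tested members, OV55666 minus Lv5NC, of the 75 lists and families, whose number of tested members stands in brackets. Bars span the medians with 1 library left out, and the dashed line is the median of all tested genes, 0.02. Mitosis and DNA replication lie lowest and annexins highest, and the bars of most lists cross 0.

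Genes of cell division were lower in OV55666 as a list. None of the 45 tested mitosis genes was higher, 21 were lower without overlap (9.07% among all genes), and the median was −0.19. CCNA2, the cyclin of S and G2 phase, was at 4.15 and 4.07 FPKM in OV55666 and at 6.88 and 4.82 in Lv5NC (log2 −0.41 ± 0.15, unadjusted p = 0.0267). The mitotic cyclin CCNB2 was at 3.67 and 3.80 FPKM against 5.97 and 4.81. LOC102187875, annotated as cyclin B1 and outside the list, was at 1.57 and 1.91 FPKM against 3.22 and 2.43. KIF20A, a kinesin of cytokinesis, was at 8.84 and 9.87 FPKM against 13.3 and 10.9, and UBE2C, which helps degrade cyclins, at 12.6 and 10.6 against 16.3 and 13.02. In each of these genes the first Lv5NC library was the higher of its group.

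The size of the difference depended on that library. Relative to the mean of the 10 libraries, the mitosis genes stood at 0.23 and −0.05 in Lv5NC and at −0.10 and −0.14 in OV55666, on the log2 scale. Without the first Lv5NC library the median was −0.05, and without the second −0.33. Elsewhere in the series the list ranged as widely, from −0.25 to 0.23 between the KD553 libraries, with Lv3NC at 0.30 and 0.13 and Blank at −0.13 and −0.22. Against Blank the median was 0.06, and against the mean of Lv5NC and Lv3NC it was −0.25. Of 38 DNA replication genes 34 were lower, 7 of them without overlap (18.4%, 9.07% among all genes), and 4 were higher, 0 of them without overlap. The median was −0.15, and −0.004 without the first Lv5NC library. It was 0.006 against Blank and −0.20 against the mean of Lv5NC and Lv3NC. LIG1, the ligase of lagging-strand synthesis, was at 5.46 and 5.14 FPKM against 7.37 and 6.34, and POLD1, a replicative polymerase, at 4.13 and 3.37 against 5.38 and 4.31. DEPDC1, a gene of dividing cells outside both lists, was at 0.61 FPKM in both OV55666 libraries against 1.02 and 1.48 (log2 −0.48 ± 0.15, unadjusted p = 0.0126).

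Signalling lists on the lower side were immediate early genes and TGF-beta genes. Immediate early genes are transcribed within minutes of a stimulus. Of 29, 21 were lower, 3 without overlap (10.3%, near the 9.07% of all genes). The median was −0.09, and it was −0.03 without the first Lv5NC library, −0.04 without the second OV55666 library, −0.20 without the second Lv5NC library and 0.26 against Blank. JUND, an AP-1 subunit, was at 108 and 121 FPKM against 124 and 137. Of 27 TGF-beta and SMAD targets 20 were lower, 5 without overlap (18.5%), and 1 was higher without overlap (3.7%). Their median was −0.08, −0.03 without the first OV55666 library and 0.12 against Blank. The 7 tested genes of bone morphogenetic proteins, growth differentiation factors and inhibins had a median of −0.11, which was −0.005 without the first Lv5NC library. Among NF-kB targets, the genes of inflammatory signalling to which LIF and CCL20 belong, 9 of 17 were higher. Without overlap 3 were higher (17.6%, 17.7% among all genes) and 3 lower (17.6%, 9.07% among all genes). Their median was 0.003, from −0.06 to 0.06 with 1 library left out.

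The lists with medians above that of all genes included annexins, ribosomal proteins and ATP synthase subunits, whose members differed by little each. All 9 tested annexins, calcium-dependent membrane-binding proteins, were higher, 3 without overlap (17.7% among all genes), with a median of 0.11. ANXA4 was at 98.5 and 103.5 FPKM in OV55666 and at 89.5 and 90.3 in Lv5NC, and ANXA5 at 257 and 257 against 231 and 239.8. The median was 0.043 without the first OV55666 library, 0.035 without the second Lv5NC library and 0.066 against the mean of Lv5NC and Lv3NC. Of 77 cytosolic ribosomal proteins 68 were higher, 22 without overlap (28.6%), 2 were lower without overlap (2.6%), and the median was 0.06. RPS15A was at 765 and 787 FPKM against 687 and 662, and RPL21 at 949 and 1020.2 against 809 and 923. RPS26 and RPS7 were the members lower without overlap, the former at 519 and 493 FPKM against 546 and 522. The ribosomal median was 0.002 without the second Lv5NC library, 0.12 without the first, and 0.04 after quantile normalization. Against the mean of Lv5NC and Lv3NC it was 0.015. The 77 mitochondrial ribosomal proteins had a median of 0.002, with 40 higher, and it ran from −0.07 to 0.07 with 1 library left out.

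Of 17 subunits of the mitochondrial ATP synthase 13 were higher, 7 without overlap (41.2%, 17.7% among all genes). Lower without overlap were 0, and the median was 0.07. ATP5E was at 149.8 and 148 FPKM against 137 and 130.4, and ATP5O at 81.6 and 85.9 against 76.7 and 74.4. The ATP synthase median was 0.04 without the second OV55666 library and 0.007 against the mean of Lv5NC and Lv3NC. Relative to the mean of the 10 libraries, these subunits stood at 0.032 and 0.026 in OV55666 and at −0.009 and −0.044 in Lv5NC. In Lv3NC they stood higher, at 0.045 and 0.089. The 37 NADH dehydrogenase subunits had a median of 0.04, with 27 higher, but −0.01 without the second Lv5NC library. Of 13 aldehyde and alcohol dehydrogenases 12 were higher, 3 without overlap (23.1%), and 1 was lower without overlap. The median was 0.09. ALDH1L2, a mitochondrial folate enzyme, was at 37.6 and 34.4 FPKM against 31.6 and 31.0, while ALDH1A1, which makes retinoic acid, was at 3.23 and 3.12 against 1.93 and 2.90. Against Blank the median of these dehydrogenases was −0.08, and against the mean of Lv5NC and Lv3NC it was 0.06.

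Of 28 interferon response genes 24 were higher, 8 without overlap (28.6%, 17.7% among all genes). Lower without overlap were 0 (9.07% among all genes), and the median was 0.08. BST2, which tethers virus particles to the cell surface, was at 1.06 and 1.51 FPKM in OV55666 and at 0.63 and 0.81 in Lv5NC (log2 0.40 ± 0.18, unadjusted p = 0.0458). PARP9, an antiviral ADP-ribosyltransferase family member, was at 2.38 and 2.66 FPKM against 2.00 and 2.22. The list stood at −0.02 and 0.12 in the OV55666 libraries and at −0.11 and 0.05 in those of Lv5NC, relative to the mean of 10, so the groups overlapped. Its median was −0.02 without the first Lv5NC library, 0.14 without the second and 0.099 against the mean of Lv5NC and Lv3NC.

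**Figure D4:**
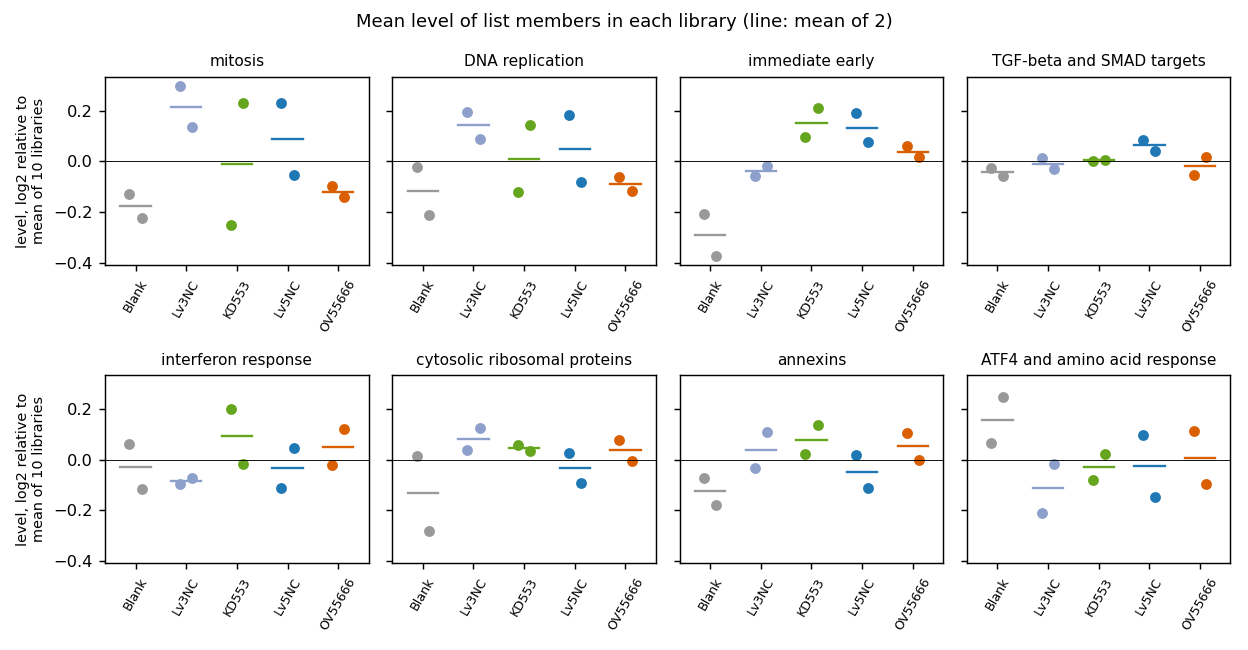
Mean log2 level of the tested members of 8 lists in each library, relative to the mean of the 10 libraries (y axis), with 1 point a library and a line at the mean of 2. In mitosis and DNA replication the first Lv5NC library stands above the second and both OV55666 libraries, and for most lists the groups lie within the range of the other libraries.

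Of 27 p53 targets 18 were higher, 7 without overlap (25.9%, 17.7% among all genes). Another 3 were lower without overlap (11.1%, 9.07% among all genes), and the median was 0.07. Without the second OV55666 library it was 0.02, without the first Lv5NC library 0.04, and against the mean of Lv5NC and Lv3NC 0.025. CCNG1, a cyclin induced by p53, was at 83.0 and 98.1 FPKM against 76.3 and 79.8, and the death receptor FAS at 8.05 and 9.25 against 7.20 and 7.45. GADD45B is also on this list and had the opposite direction. Of 22 genes of the small RNA machinery 17 were higher, 8 without overlap (36.4%) and 0 lower without overlap. The median was only 0.02, up to 0.04 with 1 library left out, and −0.004 against the mean of Lv5NC and Lv3NC. AGO3, an Argonaute protein that binds microRNAs, was at 2.44 and 2.37 FPKM against 2.12 and 2.05, and DCP2, a decapping enzyme, at 4.56 and 4.01 against 3.78 and 3.71. Of 38 lysosome and autophagy genes 31 were higher, 5 without overlap (13.2%), with a median of 0.05 that was −0.03 without the first Lv5NC library. BECN1, which starts autophagosome formation, was at 26.4 and 25.8 FPKM against 24.3 and 23.3. Of 25 NRF2 targets, genes of the antioxidant response, 19 were higher, 4 without overlap (16.0%), with a median of 0.04 and −0.05 without the second OV55666 library.

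Fibroblast markers had a median of 0.09, with 11 of 12 higher and 1 without overlap (8.33%, below the 17.7% of all genes). The median was 0.03 without the first OV55666 library, 0.15 without the second Lv5NC library and −0.15 against Blank. That member was DCN, the proteoglycan decorin, at 2180 and 2243 FPKM against 1856 and 2172. The 20 tested collagen chains had a median of 0.02, with 12 higher and 4 without overlap (20.0%), and up to 0.05 with 1 library left out. COL16A1, a fibril-associated collagen chain, was at 81.6 and 76.0 FPKM against 72.0 and 73.5. The 11 S100 calcium-binding proteins had a median of 0.09, which was −0.003 without the first OV55666 library. S100A13 was at 21.0 and 18.7 FPKM against 16.5 and 15.3.

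Genes of milk and its hormones differed little. Of 19 milk protein genes listed, 9 had a row and 4 were tested, and 0 of the 4 were higher. SPP1, the secreted phosphoprotein osteopontin, was at 13.9 and 17.7 FPKM in OV55666 and at 18.7 and 21.4 in Lv5NC, and was the member without overlap (log2 −0.33 ± 0.20, unadjusted p = 0.128). MFGE8, of the milk fat globule, was at 105.7 and 111 FPKM against 109.6 and 114, a difference smaller than that within either group. CD36, a fatty acid transporter, was at 1.48 and 2.37 FPKM against 2.07 and 2.61, and XDH, which takes part in the secretion of milk fat droplets, at 1.07 and 1.39 against 0.95 and 1.69. The sign of CD36 and XDH turned when single libraries were left out.

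Of 35 milk fat synthesis genes 19 were higher, 5 without overlap (14.3%), and 4 were lower without overlap (11.4%), shares near those of all genes, 17.7% and 9.07%. The median was 0.01, and −0.01 without the first OV55666 library. The largest rises without overlap in this list were those of ACSL5 and ACSS1. ACSL5, a long-chain acyl-CoA synthetase, was at 16.4 and 15.1 FPKM against 13.5 and 12.5 (log2 0.26 ± 0.09, unadjusted p = 0.0139). ACSS1, the mitochondrial acetyl-CoA synthetase, was at 3.13 and 2.63 FPKM against 2.22 and 2.21 (log2 0.27 ± 0.11, unadjusted p = 0.0312), with the Lv5NC libraries the lowest of the 10. On the lower side, ELOVL6, a fatty acid elongase, was at 8.47 and 8.27 FPKM against 8.80 and 8.88. Of 23 cholesterol synthesis genes 8 were higher, 2 without overlap (8.7%), with a median of −0.01 that ran from −0.08 to 0.06 with 1 library left out. Against Blank that median was −0.77.

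Of 21 hormone and growth factor receptors 16 were higher, 2 without overlap (9.52%, below the 17.7% of all genes). The median was 0.04, and −0.01 without the first Lv5NC library. The members without overlap were THRA, the thyroid hormone receptor alpha, at 16.1 and 15.6 FPKM against 14.9 and 12.99, and GHR, the growth hormone receptor, at 20.3 and 22.0 against 19.9 and 20.1. ESR1, the oestrogen receptor, was at 8.77 and 9.25 FPKM against 9.56 and 9.08, so that the groups overlapped. The 21 prolactin and STAT5 signalling genes had a median of −0.02, with 8 higher, and it ran from −0.08 to 0.03 with 1 library left out.

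Large families had medians close to that of all genes. Of 192 zinc finger genes named ZNF 122 were higher, with a median of 0.03 that ran from −0.01 to 0.07 with 1 library left out. Among them was ZNF568, at 1.20 and 1.19 FPKM against 0.76 and 0.74 (log2 0.33 ± 0.10, unadjusted p = 0.00964). ZNF580 had the opposite direction, at 5.76 and 4.84 FPKM against 7.18 and 6.67. The 171 solute carriers had a median of 0.001, with 89 higher, and it ran from −0.01 to 0.02 with 1 library left out. The 314 tested genes that the authors numbered as BGI_novel had a median of 0.04, with 187 higher, 71 without overlap (22.6%, 17.7% among all genes). Another 28 were lower without overlap (8.92%, near the 9.07% of all genes). BGI_novel_G000065, chosen after its values were seen, was the one gene with a change over 1. The authors' annotation calls it subunit 2 of the mitochondrial NADH dehydrogenase. It was listed at 0 in both Lv5NC libraries and at 1.86 and 3.13 FPKM in OV55666, and ran from 0.86 to 2.45 in the other 6 libraries (limma unadjusted p = 0.000258), so it is Lv5NC that stood apart. With a pseudocount of 0.1 it was the 1 gene called, at an adjusted p of 0.0294 (limma). As both Lv5NC values are 0, the pseudocount sets the size of that change. Whether this row gives the level of the subunit was not tested.

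Some of the largest changes came from 1 library. In the first OV55666 library 6 genes, and in the second 3, were more than 0.5 above all other 9 libraries on the log2 scale. In the Lv5NC libraries 3 and 4 genes were so, and in the second Blank library 68. The following genes were chosen after their values were seen. CCDC15, a coiled-coil protein, was at 8.57 FPKM in the first OV55666 library and between 2.51 and 3.02 in the other 9. HOXA4, a homeobox gene of body patterning, was at 5.37 FPKM in that library and between 1.17 and 1.95 elsewhere. MORC4, a chromatin-associated ATPase, was at 14.4 against 5.93 to 7.58 FPKM, and PC, pyruvate carboxylase, at 8.05 against 3.12 to 4.80. In the second OV55666 library FBXW4, an F-box protein, was at 8.01 FPKM against 3.12 to 4.12 elsewhere, and POLH, a polymerase that copies past DNA lesions, at 14.9 against 7.20 to 9.22. ACRC was at 4.13 FPKM in that library, and at most 2.03 in the other 9. ATG5, which acts in autophagy, was at 9.42 FPKM there against 5.75 to 7.03, a smaller gap. The same gene was not high in the other OV55666 library in any of these cases except ACRC, whose 2.03 FPKM there was still above the remaining 8. Of the nearest protein-coding genes to 7 of these genes, 2 a side in the order of the RefSeq table, 12 were tested, next to 6 of the 7, and 0 of the 12 were above their range in the other 9 libraries in the library where the gene was high. HOXA4 had no tested neighbour. Of the 12 neighbours below the filter 4 were above that range, each by a small amount at a low level. HOXA2 was at 0.22 FPKM against at most 0.19, HOXA6 at 0.42 against at most 0.33, and CD40LG and CXCR3, next to ACRC, at 0.06 and 0.05 against at most 0.05 and 0.03. What sets these values was not tested.

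**Figure D5:**
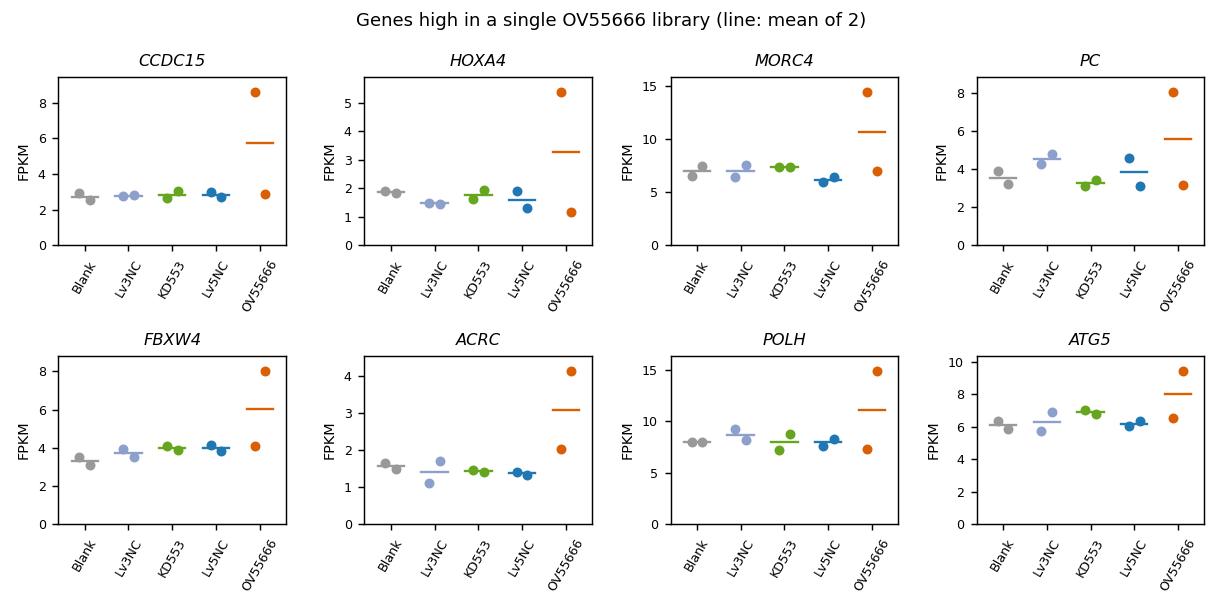
FPKM (y axis, linear from 0) of 8 genes in each of the 10 libraries, by group, with 1 point a library and a line at the mean of 2. In each gene 1 OV55666 library stands above the other 9 libraries, which is the first for the genes of the upper row and the second for those of the lower row. The other OV55666 library lies within or near the range of the remaining 8.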

How the data were processed

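RNA sequencing values of 10 libraries were used, and 4 of them entered the comparison. The authors deposited FPKM values for 17197 genes with 2 decimals, per the file headers. Aligner, counting tool and genome build: not given in the sources used here. Gene identifiers were matched to the RefSeq table of ARS1.2 (16658 matched, 539 BGI_novel) for symbols and gene order only. FPKM does not keep depth, which is unknown.

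Values were analysed as log2(FPKM + 1) for genes with at least 1 FPKM in at least 2 libraries. limma 3.58.1 in R 4.3.3 fitted a mean for each of the 5 groups over all 10 libraries, with trend and robust options, and Benjamini-Hochberg adjustment over 11340 genes. Calls were made under an adjusted p of 0.05. Lists and families were described by counts and medians, with no test. Groups do not overlap where both libraries of a group lie beyond both of the other. The members and lists were chosen with earlier results of these data known. Genes were named by a rule: the 15 largest changes a direction without overlap, the 10 smallest p, 10 a direction among genes of at least 100 FPKM and outside the other 8 libraries, up to 2 a direction in each list, and all milk protein and receptor genes tested. Not all are reported. On simulated data for this comparison with 11340 genes and 200 changed, 87.8% of changes of 1 and 47% of changes of 0.5 were recovered, with a mean of 5.4 wrong calls in 5 draws. The changes were placed only in genes with a mean log2(FPKM + 1) above 2, so the recovery of lower genes is unknown. Noise was drawn independently for each gene and library, and differences shared across genes by a library were not simulated. Alternatives were the pseudocount, quantile normalization, leaving out libraries, a replicate block, the libraries in the fit, filters, limma options and other controls.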

Additional observations from a re-analysis of the deposited data

How the results depend on the processing

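The count of called genes was 0 of 11340 in limma as described and stayed 0 after quantile normalization, with a replicate block, in a fit of the 4 libraries, with both other filters, without trend and robust options, and with the mean of Lv5NC and Lv3NC as the control, with 93 to 397 genes at an unadjusted p under 0.05 in these settings. It was 1 with a pseudocount of 0.1, 43 with Blank as the control (16 higher), and 2 against Blank without its second library, a setting chosen after the data were seen. With each of the 4 libraries left out it ranged from 0 to 0, where the lone library is assumed to vary like the other groups, and genes with an unadjusted p under 0.05 numbered 141 to 231. With the replicate block, fitted to 8 libraries without KD553, whose numbers differ between title and description, 209 genes had an unadjusted p under 0.05, against 176 in the same 8 libraries without it. The labels do not say that a number marks a shared culture or day. The differences between library 1 and library 2 correlated across genes at r = 0.503 between Lv5NC and OV55666, and between −0.462 and 0.0488 for the other pairs of groups. The block fits 1 common difference between first and second libraries, so it cannot remove one that Lv5NC and OV55666 alone share. A fit that pairs the 4 libraries by number was not made, so the count of 0 is not known for it. Of the 98 genes followed, the log2 change reversed in 5 when single libraries were left out. Over the 4 leave-outs CD36 ranged from −0.42 to 0.0176, HOXA4 from −0.25 to 1.3 and PC from −0.20 to 0.91, each reversed without the first OV55666 library. POLH ranged from −0.10 (without the second OV55666 library) to 0.83. XDH ranged from −0.27 to 0.19, and was reversed at 0.06 without the first OV55666 library and at 0.19 without the second Lv5NC library. Unknown depth and the low levels of several named genes limit the precision.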
